A study of Mus musculus with 8 samples.

Results

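The genes described are those of the synaptic vesicle and its release machinery: 91 of the 23278 genes in the deposited tables, taken by a rule on their symbols that uses no measured value, though the rule was set with earlier results of these data known. The symbols cover the synaptotagmins (Syt), synapsins (Syn1 to Syn3), the SNAP-25 family (Snap), the vesicle-associated membrane proteins (Vamp), syntaxins (Stx), syntaxin-binding proteins (Stxbp), complexins (Cplx), Rab3 GTPases with their regulators, synaptophysin (Syp), synaptogyrins (Syngr), Rims and Unc13. The same symbol rule also took in 12 Rab GTPases, Rab30 to Rab39b, that are not of the Rab3 family, and Snap91, a clathrin adaptor. They are counted as members. The Rab30 to Rab39 GTPases are described apart, and Snap91 is counted with the neuronal release members below. Of the 91 members, 79 had at least 1 RPKM in at least 2 of the 8 libraries and were tested. RPKM is a read count divided by the length of the gene model and by the size of the library.

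A presynaptic terminal stores transmitter in vesicles and releases it when calcium enters. Fusion is driven by SNARE proteins: a VAMP on the vesicle zips together with a syntaxin and SNAP-25 on the plasma membrane. Syntaxin-binding and Unc13 proteins prepare the syntaxin for this, complexins hold and promote the assembled complex, and synaptotagmins 1 and 2 are the calcium sensors that trigger fast release. Synapsins tether vesicles, Rab3 and Rim proteins bring them to the active zone, and synaptophysin and the synaptogyrins are membrane proteins of the vesicle itself. Other members of the same families serve membrane traffic in most cell types, among them Snap23, Vamp3, Stx2 and Stxbp3a (Munc18-3).

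The 8 RNA-seq libraries were made from laser captures of lumbar cord sections of newborn mice (strain FVB/N, postnatal day 1). Motor neurons of the ventral horn, and white matter labelled as glia, were captured in WT mice and from mice of the genotype SMN2+/+;SMNΔ7+/+;Smn-/-, a model of spinal muscular atrophy (SMA). These SMA mice lack mouse Smn, the gene of the survival motor neuron protein, and carry human SMN2 and an SMN transgene without an exon, whereas the label of the controls names no transgene. Each of the 4 groups held 2 libraries. The labels name no animals, so neither the sharing of animals between regions nor pooling is known. The p-values reflect the spread between libraries alone, which may be in part technical.

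Library sizes worked out from the RPKM values were 77.5 to 102.8 M reads. Replicate 1 of each group had Xist, the transcript of the inactive X chromosome, at 12.6 RPKM or more, and replicate 2 at 0.0581 RPKM or less. Ddx3y, a gene of the Y chromosome, was at 0 in replicate 1 of each group and at 0.628 to 6.37 RPKM in replicate 2. By these genes the 2 libraries of each group came from mice of unlike sex, and sex goes with replicate number. The spread within a group is therefore not technical alone. Smn1 was listed at 0 in all 4 SMA libraries and lay between 2.93 and 14.3 RPKM in the WT ones. The labelled regions held their defining markers. A list of 15 motor neuron markers, such as Chat and Isl1, summed to 820 to 1142 RPKM in motor neuron captures and to 15.1 to 30.7 RPKM in white matter. A list of 14 oligodendrocyte lineage markers summed to 111 to 208 RPKM in motor neurons and to 2292 to 5411 RPKM in white matter. The number of genes at 1 RPKM or more was 11539 in SMA motor neuron replicate 2 and 11983 to 12796 elsewhere.

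The promoters of 3 members are shown because their genes were called in opposite directions between the regions: Syn1 and Syp were higher in motor neurons, Stx2 in white matter. RefSeq sequences (GRCm38.p6) were at hand for 67 of the 91 members, and the 250 bases before the annotated start are printed 5′ to 3′ along the gene. Capitals mark TGACGTCA (the cyclic AMP response element) and TCAGCACC (the left part of RE1, the element bound by the repressor REST) in Syn1, and GGGCGG (the GC box bound by Sp1 factors) on either strand in Syp and Stx2. Syn1 lies at chrX:20920919-20921168 on the minus strand, Syp at chrX:7638330-7638579 on the plus strand and Stx2 at chr5:129008573-129008822 on the minus strand.
Syn1: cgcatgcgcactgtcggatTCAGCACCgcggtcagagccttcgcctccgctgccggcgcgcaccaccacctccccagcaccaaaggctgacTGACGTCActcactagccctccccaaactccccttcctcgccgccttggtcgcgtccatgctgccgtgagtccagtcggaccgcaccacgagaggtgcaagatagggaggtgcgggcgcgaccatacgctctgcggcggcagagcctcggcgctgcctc
Syp: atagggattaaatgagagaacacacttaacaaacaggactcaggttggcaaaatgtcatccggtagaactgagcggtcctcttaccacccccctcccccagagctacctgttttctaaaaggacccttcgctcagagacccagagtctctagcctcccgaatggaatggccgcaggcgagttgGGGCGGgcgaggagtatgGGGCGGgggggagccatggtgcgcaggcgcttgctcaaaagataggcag
Stx2: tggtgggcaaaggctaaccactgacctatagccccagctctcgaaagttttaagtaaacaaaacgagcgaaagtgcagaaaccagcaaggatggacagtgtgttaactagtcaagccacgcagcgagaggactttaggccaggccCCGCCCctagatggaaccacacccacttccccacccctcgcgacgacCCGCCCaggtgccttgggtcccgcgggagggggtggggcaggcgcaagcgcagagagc

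Over windows of 300 bases, which add 50 bases after the start, TCAGCACC on either strand was in 3 of 85 member windows (3.53%) and in 1.65% of all 32851 windows. The members were Syn1, Unc13a and Rab39b. TGACGTCA was in 1 member window, that of Syn1 (1.18%), and in 1.79% of all windows. GGGCGG was in 58 of the 85 member windows (68.2%) and in 35.7% of all windows. The 85 windows belong to 67 genes, and all windows to 27025 genes, which include genes not tested here. A share over the tested genes alone was not worked out. It was in 23 of 30 windows of members higher in WT motor neurons and in 4 of 8 windows of members lower there. A match is a stretch of letters and was not tested for binding.

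The first comparison asked how the captured motor neurons differ from the white matter in WT mice. Most of the neuronal release genes were several-fold higher in motor neurons. A minority of the general trafficking relatives, among them Vamp3, Snap23, Stx2 and Stxbp3a, were higher in white matter. Of the 79 tested members, 35 were higher in motor neurons (limma, Benjamini-Hochberg adjusted p under 0.05), beside 18.6% of all 13948 tested genes, and 9 were lower, beside 9.85%. The median log2 difference was 0.83 for the members and 0.079 for all tested genes. All log2 differences, given with their SE, are of log2(RPKM + 1), so the change of a gene with a low level is understated. In captures that hold many cells, fewer cells of a type and less RNA per cell cannot be told apart.

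The members were divided by known role, also with earlier results known, so the split is a description. Of the 31 tested neuronal release members, 23 were higher in WT motor neurons and 1, Unc13c, was lower, with a median log2 difference of 2.37. Of the 26 tested general trafficking members, 3 were higher (Snap47, Rab3d and Stx7), 5 lower and 18 not called, with a median of -0.038. Rab3d entered the test through its motor neuron libraries alone. Of 11 other tested members, all of them synaptotagmins, 7 were higher and 0 lower. Of the 11 tested Rab30 to Rab39 GTPases, 2 were higher and 3 lower.

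**Figure D1:**
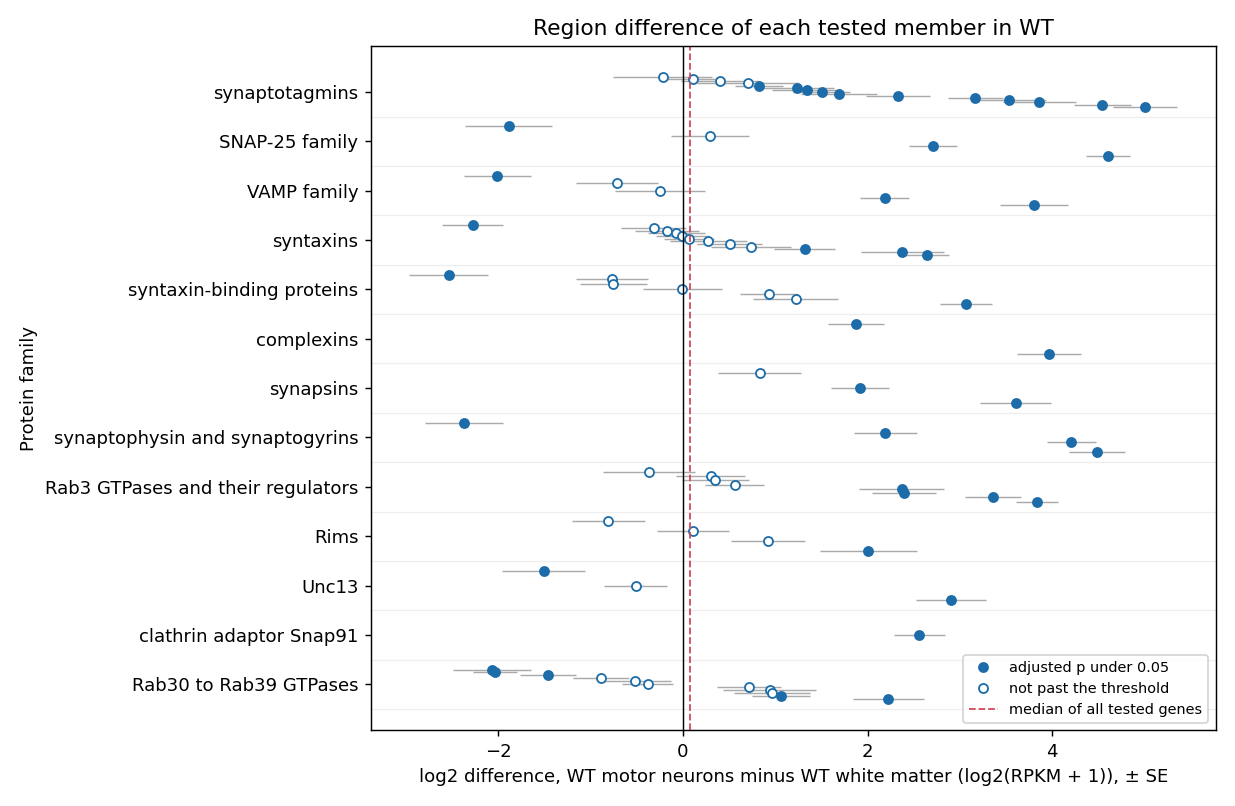
Log2 difference of each tested member between WT motor neurons and WT white matter (x axis, log2(RPKM + 1), bars are SE), by protein family (y axis). Filled points passed limma with adjusted p under 0.05, and the dashed line is the median of all tested genes (0.079). Most families hold filled points on the right side, and the SNAP-25, VAMP, syntaxin, syntaxin-binding, synaptogyrin and Unc13 families each hold a filled point on the left side as well, and the Rab30 to Rab39 GTPases hold 3.

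Among the SNARE proteins of the synapse, Snap25, a SNARE of the plasma membrane, had the highest level of all members in each motor neuron library. It was at 725 and 653 RPKM in WT motor neurons, 808 and 628 RPKM in SMA motor neurons, 26.8 and 27.9 RPKM in WT white matter and 48.8 and 33.7 RPKM in SMA white matter. It ranked 28 to 32 among all 23278 genes in motor neuron libraries and 911 to 1405 in white matter. The motor neuron and white matter values did not overlap, and the WT difference was 4.60 ± 0.24 on the log2 scale (limma adjusted p = 9.0e-06). This was a ratio of 25.2 between the WT means.

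The vesicle SNARE Vamp2 was at 277 and 229 RPKM in WT motor neurons and at 60.6 and 49.2 RPKM in WT white matter (log2 difference 2.19 ± 0.27, limma adjusted p = 3.7e-04). Its relative Vamp1, a vesicle SNARE of neuromuscular terminals, was at 87.1 and 72.5 RPKM against 5.95 and 3.80 RPKM (3.80 ± 0.37, limma adjusted p = 1.1e-04). Vamp2 thus kept a higher level than Vamp1 in white matter, by a ratio of 10.2 and 13.0 in the WT white matter libraries against 3.19 and 3.15 in the WT motor neuron libraries. Stx1a, a syntaxin of the presynaptic membrane and partner of Snap25, was at 16.0 and 13.3 RPKM against 2.77 and 1.40 RPKM (2.38 ± 0.45, limma adjusted p = 0.00371).

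Unc13a, the main Munc13 priming protein, was at 24.4 and 17.8 RPKM in WT motor neurons against 3.08 and 1.09 RPKM in WT white matter (log2 difference 2.90 ± 0.38, limma adjusted p = 5.3e-04). Its relative Unc13c went the other way, at 2.05 and 0.845 RPKM in WT motor neurons and 4.83 and 6.80 RPKM in WT white matter (-1.51 ± 0.45, limma adjusted p = 0.0325). Unc13b did not pass (-0.51 ± 0.34, limma adjusted p = 0.296). The complexins Cplx1 (148 and 116 RPKM against 10.9 and 4.995 RPKM) and Cplx2 (27.4 and 19.4 RPKM against 5.03 and 6.19 RPKM) were both higher in motor neurons (limma adjusted p = 6.7e-05 and 0.00170). Cplx1 was above Cplx2 by a ratio of 5.26 to 5.96 in the 4 motor neuron libraries and stood at 0.807 to 2.16 times its level in white matter, below it in 3 of the 4 libraries.

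The synaptotagmins were 15 of the tested members, and 11 were higher in WT motor neurons and 0 lower. Syt2, the fast calcium sensor of spinal and brainstem neurons and of motor terminals, had the largest difference of all tested members. It was at 64.5 and 56.7 RPKM in WT motor neurons and at 1.37 and 0.544 RPKM in WT white matter (5.01 ± 0.35, limma adjusted p = 2.1e-05). Syt1, the fast sensor of forebrain synapses, was at 27.7 and 29.4 RPKM against 2.32 and 0.980 RPKM (3.53 ± 0.40, limma adjusted p = 2.5e-04). Syt3, a sensor of high calcium affinity, was at 105 and 85.0 RPKM against 4.25 and 2.22 RPKM (4.54 ± 0.31, limma adjusted p = 2.1e-05).

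Syt11, which does not bind calcium, had the highest RPKM of the synaptotagmins in every library of either region. It was at 111 and 97.9 RPKM in WT motor neurons and 67.7 and 50.9 RPKM in WT white matter, a difference of 0.82 ± 0.26 that passed limma by little (adjusted p = 0.0411). Syt11 did not pass in 7 of 17 alternatives: after median-of-ratios scaling, after quantile normalization, with no filter or without any 1 of the 4 WT libraries. Syt7, a slow calcium sensor found in many tissues, lay at 8.86 and 7.77 RPKM in WT motor neurons and 8.73 and 6.63 RPKM in WT white matter and did not pass (limma adjusted p = 0.847).

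Genes of the vesicle surface followed the release SNAREs. Syp was at 257 and 186 RPKM in WT motor neurons against 11.99 and 6.38 RPKM in white matter, and it was higher by 4.49 ± 0.31 on the log2 scale (limma adjusted p = 2.1e-05). The synaptogyrin Syngr3 was higher by 4.21 ± 0.27 (limma adjusted p = 1.7e-05). Syngr2, the synaptogyrin of non-neuronal cells, was lower, at 2.47 and 1.28 RPKM against 15.4 and 11.9 RPKM (-2.37 ± 0.42, limma adjusted p = 0.00286). Syn1, the vesicle tether, was at 140 and 82.7 RPKM against 9.97 and 6.28 RPKM (3.60 ± 0.38, limma adjusted p = 1.9e-04). Syn2 was at 36.5 and 23.1 RPKM against 8.33 and 5.74 RPKM (1.92 ± 0.31, limma adjusted p = 0.00177).

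Rab3a, the main vesicle GTPase of neurons, had the second level among members in all 4 motor neuron libraries, at 421 and 335 RPKM in WT and 359 and 424 RPKM in SMA. In white matter it lay at 26.1 and 24.6 RPKM in WT and at 45.5 and 36.1 RPKM in SMA, and the WT difference was 3.84 ± 0.23 (limma adjusted p = 1.2e-05). Rab3b, Rab3c and Rab3d were higher in WT motor neurons too (3.36 ± 0.30, 2.37 ± 0.46 and 2.40 ± 0.35), but Rab3d entered the test through its motor neuron libraries alone. The genes named as partners of Rab3 did not pass in WT: Rab3gap1 and Rab3gap2, which stop its signal, had limma adjusted p = 0.515 and 0.222, and Rab3ip and Rab3il1, named for their link to Rab3, 0.595 and 0.633. The Rim proteins tie Rab3 vesicles to the active zone. Rims1 was at 11.8 and 5.69 RPKM in WT motor neurons and 5.03 and 2.97 RPKM in WT white matter, and did not pass (limma adjusted p = 0.120), whereas Rims3 did (2.01 ± 0.52, limma adjusted p = 0.0179).

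**Figure D2:**
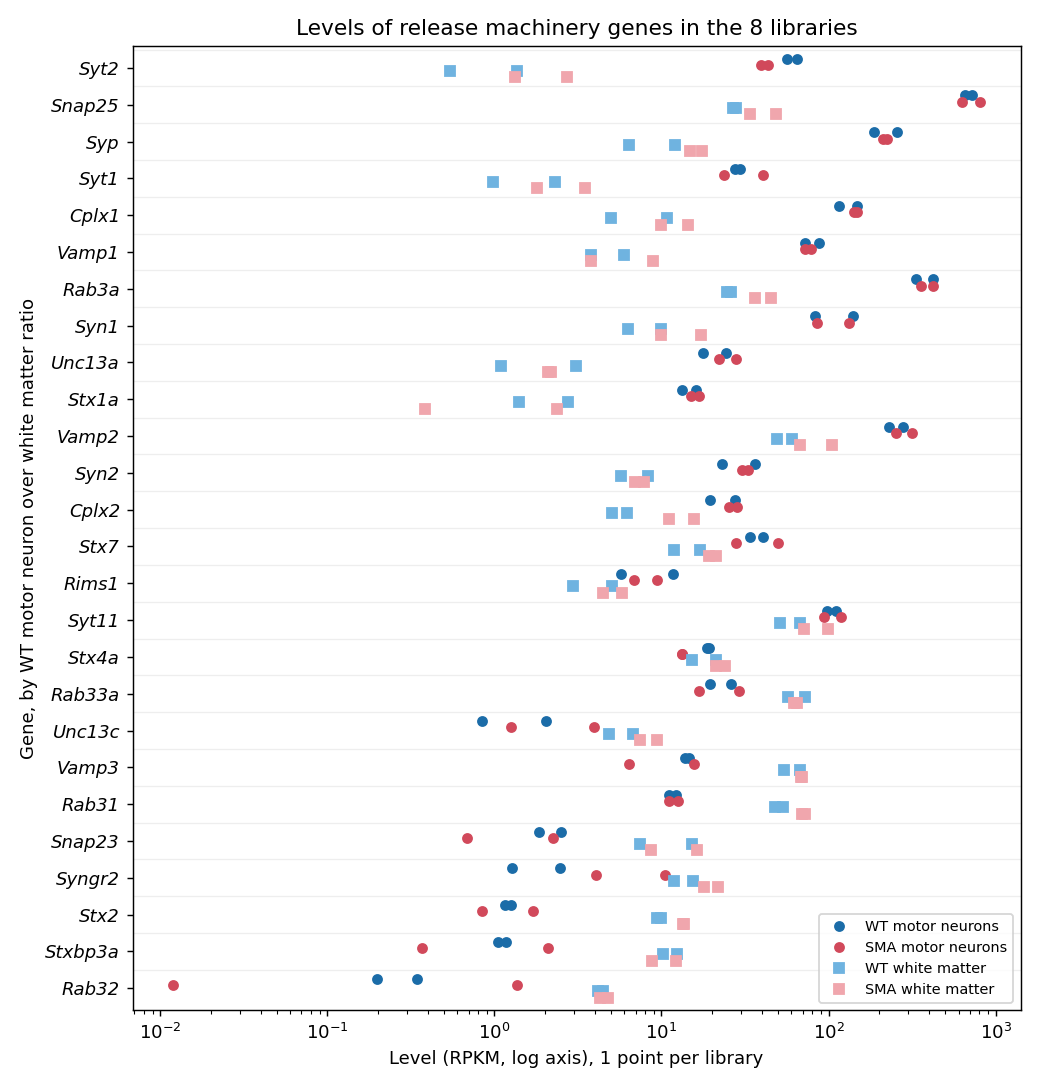
Level of 26 members in each of the 8 libraries (x axis, RPKM on a log axis; 1 point per library; circles are motor neurons, squares white matter; blue WT, red SMA), ordered by the ratio of WT motor neurons to WT white matter. Snap25 reaches 628 to 808 RPKM in motor neurons, and the genes at the foot of the plot, from Rab33a down, have their WT white matter points to the right of their WT motor neuron points.

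The members called higher in WT white matter were 9 of 79, near the share of all tested genes (9.85%). Vamp3 (cellubrevin), a vesicle SNARE of recycling endosomes in most cells, was at 13.8 and 14.7 RPKM in WT motor neurons and at 54.2 and 67.2 RPKM in WT white matter (-2.01 ± 0.36, limma adjusted p = 0.00287). Stx2, a plasma membrane syntaxin of non-neuronal cells, was at 1.26 and 1.15 RPKM against 9.92 and 9.43 RPKM (-2.28 ± 0.33, limma adjusted p = 9.3e-04). Stxbp3a, the Munc18 of surface traffic outside synapses, was at 1.17 and 1.05 RPKM against 10.2 and 12.4 RPKM (-2.54 ± 0.42, limma adjusted p = 0.00201). Snap23, the widely expressed relative of Snap25, was at 2.50 and 1.85 RPKM against 7.42 and 15.2 RPKM (-1.89 ± 0.47, limma adjusted p = 0.0153). In each of these 4 genes both white matter values lay above both motor neuron values in WT. Rab31, Rab33a and Rab32 were also lower in WT motor neurons, with log2 differences of -2.03 ± 0.24, -1.46 ± 0.31 and -2.07 ± 0.43 (limma adjusted p = 3.1e-04, 0.00654 and 0.00586). Rab32 entered the test through its white matter libraries alone. Rab31 takes part in traffic between the trans-Golgi and endosomes. Stx4a, a plasma membrane syntaxin of many cell types, did not pass (0.066 ± 0.27, limma adjusted p = 0.884), and its sign turned after median-of-ratios scaling. Stx7, an endosomal syntaxin, was higher in motor neurons (1.32 ± 0.33, limma adjusted p = 0.0144).

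Ratios of related genes within a library do not depend on how libraries were scaled. Snap25 was 291- and 353-fold above Snap23 in the WT motor neuron libraries and 3.62- and 1.83-fold above it in the WT white matter libraries. Vamp2 stood to Vamp3 as 20.1 and 15.5 in WT motor neurons and as 1.12 and 0.732 in WT white matter. Both ratios were above the white matter values in all 4 motor neuron libraries, SMA included.

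**Figure D3:**
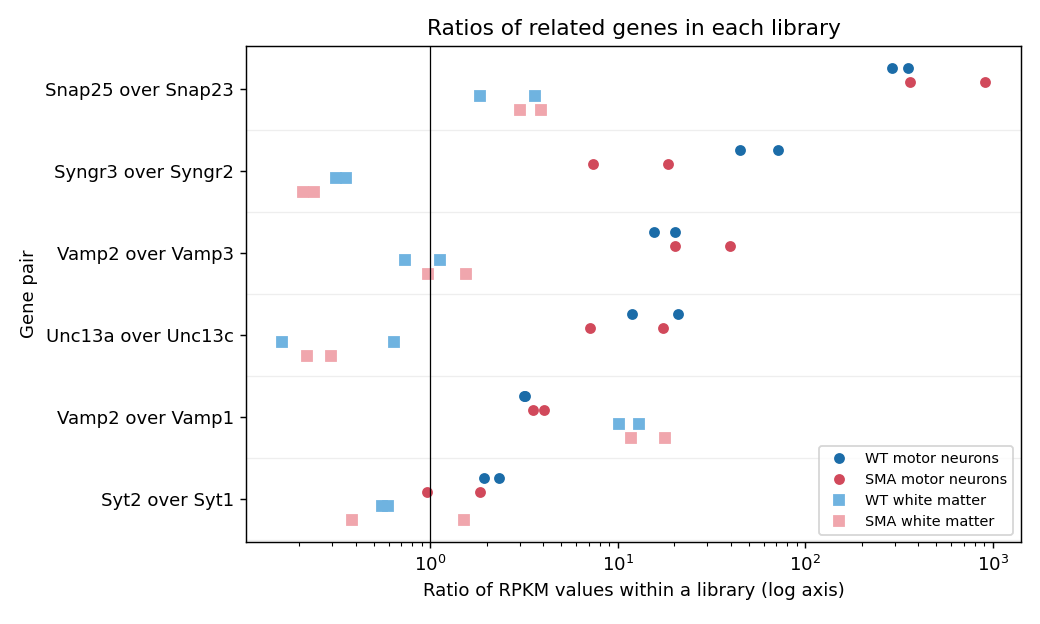
Ratio of the RPKM values of 2 related genes within each library (x axis, log axis; circles motor neurons, squares white matter; blue WT, red SMA; the vertical line marks equal levels). Snap25 over Snap23 lies between 291 and 913 in motor neurons and between 1.83 and 3.88 in white matter, while Vamp2 over Vamp1 is lower in motor neurons (3.15 to 4.01) than in white matter (10.2 to 17.9).

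The neuronal release members were not near 0 in white matter. In WT they summed to 2855 and 2333 RPKM in motor neurons and to 273 and 225 RPKM in white matter, so that the white matter mean was 9.60% of the motor neuron mean. The same share was 1.63% for the 15 motor neuron markers and 9.0% for the 13 spinal interneuron markers. The interneuron markers summed to 222 to 232 RPKM in WT motor neurons and 13.4 to 27.4 RPKM in WT white matter. Among them Sst alone was at 127 and 156 RPKM in WT motor neurons and at 10.7 and 3.62 RPKM in WT white matter. The share of 9.0% therefore rests largely on Sst, and a share without it was not worked out. The part of other neurons in the white matter levels was not tested. The sum of the general trafficking members was nearly the same in both regions, at 312 and 295 RPKM in WT motor neurons and 278 and 294 RPKM in WT white matter. Single members within this sum differed in opposite directions, with 3 called higher and 5 lower in motor neurons. In white matter the 5 highest members were the same genes in all 4 libraries, in changing order: Vamp2, Vamp3, Syt11, Rab31 and Rab33a.

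Related genes outside the symbol rule were taken from a list of 60 active zone and vesicle cycle genes, of which 57 were tested. In WT motor neurons 43 were higher, beside 18.6% of all tested genes, and 0 lower, beside 9.85%. The median log2 difference was 1.70 for the list and 0.079 for all tested genes. The 3 with the smallest p were Sncg (gamma-synuclein), Slc18a3, which loads acetylcholine into vesicles, and the vesicle glycoprotein Sv2c. Slc18a3 is also one of the 15 motor neuron markers. Sncg was at 542 and 431 RPKM in WT motor neurons against 15.2 and 8.46 RPKM in WT white matter. Slc18a3 was at 218 and 233 RPKM against 1.73 and 1.90 RPKM, and Sv2c at 105 and 79.2 RPKM against 2.41 and 0.703 RPKM (limma adjusted p = 9.0e-06, 1.4e-05 and 2.1e-05 in this order). On the lower side were Sh3gl1, Ppfia1 and Itsn1 (limma adjusted p = 0.0542, 0.121 and 0.165), which did not pass.

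Of the WT region calls, 27 of the 35 higher and 5 of the 9 lower members passed under all 17 alternatives. The higher calls lost under at least 1 alternative were Rab39b, Rims3, Stx7, Syt5, Syt9, Syt11, Syt13 and Syt16, and the lower ones Rab32, Rab33a, Snap23 and Unc13c. Without WT motor neuron replicate 1 the lower count was 5. A total of 4 tested members reached the filter of 1 RPKM in 2 libraries through 1 region alone, Rab37, Rab3d and Syt10 through motor neurons and Rab32 through white matter. Rab3d and Rab32, which were called, therefore entered the test by their higher region.

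In SMA mice the same comparison gave a like division. Of the 79 members 29 were higher in SMA motor neurons than in SMA white matter, beside 13.6% of all tested genes, and 13 were lower, beside 17.2%. The median log2 difference was 0.57 for the members and -0.24 for all tested genes. These libraries are other ones than those of the WT comparison. Both comparisons take the spread of each gene from 1 fit of all 8 libraries, however, so their calls are not independent. The overlap of calls over all tested genes was not worked out. All 29 higher members had also been called higher in WT (82.9% of the 35 WT calls), and all 9 WT lower members were called lower in SMA (69.2% of the 13 SMA calls). Among neuronal release members 21 were higher and 2 lower, and among general trafficking members 2 were higher and 7 lower.

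Snap25 differed by 4.10 ± 0.24 between the SMA regions, Syngr3 by 3.84 ± 0.27, Rab3a by 3.23 ± 0.23, Syt12 by 3.93 ± 0.30 and Syp by 3.68 ± 0.31 on the log2 scale (limma adjusted p of 8.3e-05 or less for each). On the lower side Rab31 was at -2.49 ± 0.24, Stx2 at -2.71 ± 0.33, Vamp3 at -2.65 ± 0.36, Vamp8 at -2.73 ± 0.45 and Stxbp3a at -2.46 ± 0.42 (limma adjusted p of 0.00268 or less for each). Snap23, Rab33a, Stxbp4, Rab32 and Rims2 were the next lower ones (limma adjusted p = 0.00452 to 0.0130). Of the 19 members followed in every comparison, 13 were higher in SMA motor neurons, Snap23 and Vamp3 were lower, and Rims1, Syt11, Stx4a and Stx7 did not pass. Vamp8, a SNARE of endosomes and secretory granules, was not called in WT. It was at 1.15 and 0.695 RPKM in SMA motor neurons and at 15.6 and 8.71 RPKM in SMA white matter, against 5.32 and 1.84 RPKM and 5.81 and 6.09 RPKM in the WT libraries. The values of Vamp8 did not overlap between regions in either genotype, but the WT difference did not pass (-0.71 ± 0.45, limma adjusted p = 0.267).

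The members called lower in SMA and not in WT were Rab34, Rims2, Stxbp4 and Vamp8, and those called higher in WT and not in SMA were Rab39, Rab39b, Rims3, Stx7, Syt9 and Syt11. Rims2, an active zone Rim, was at 4.52 and 3.37 RPKM in WT motor neurons, 7.02 and 8.25 RPKM in WT white matter, 3.84 and 1.48 RPKM in SMA motor neurons and 11.6 and 8.15 RPKM in SMA white matter. A call in 1 genotype and not in the other does not show that the genotypes differ. The difference between the region effects was tested for each member, and 0 of 79 passed (limma, smallest adjusted p = 0.883; 0 positive and 3 negative at an unadjusted p under 0.05, beside 0.609% and 4.36% of all tested genes; 0 by voom). The 3 were Vamp8 (-2.02 ± 0.63), Syt2 (-1.16 ± 0.49) and Rab39 (-1.24 ± 0.55), followed by Syt3 and Cplx2 (-0.94 and -0.91). On the positive side Syt12, Syt5, Syngr2, Syt17 and Rims4 came first (0.57 to 0.96). Among 19 members followed in every comparison the differences lay between -1.16 for Syt2 and 0.59 for Stx1a, and the median was -0.35 for all tested members and -0.33 for all tested genes. Slc32a1 (0.61) and Sh3gl2 (-0.995) came first in the list outside the symbol rule and did not pass.

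Without SMA white matter replicate 1 the lower count in SMA fell to 6, and it was 8 in a fit of the compared libraries only. Under all 17 alternatives 26 of the 29 higher and 6 of the 13 lower calls held. The lost ones were Cplx2, Rab3c and Syt16, and Rab32, Rab34, Rims2, Snap23, Stxbp4, Syngr2 and Unc13c. In the list outside the symbol rule 34 of 57 genes were higher in SMA motor neurons, beside 13.6% of all tested genes. The 1 lower gene, beside 17.2%, was Sh3gl1, an endophilin of wide expression (-1.19 ± 0.29, limma adjusted p = 0.0129). Sncg, Slc18a3 and Sv2c again had the smallest p.

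**Figure D4:**
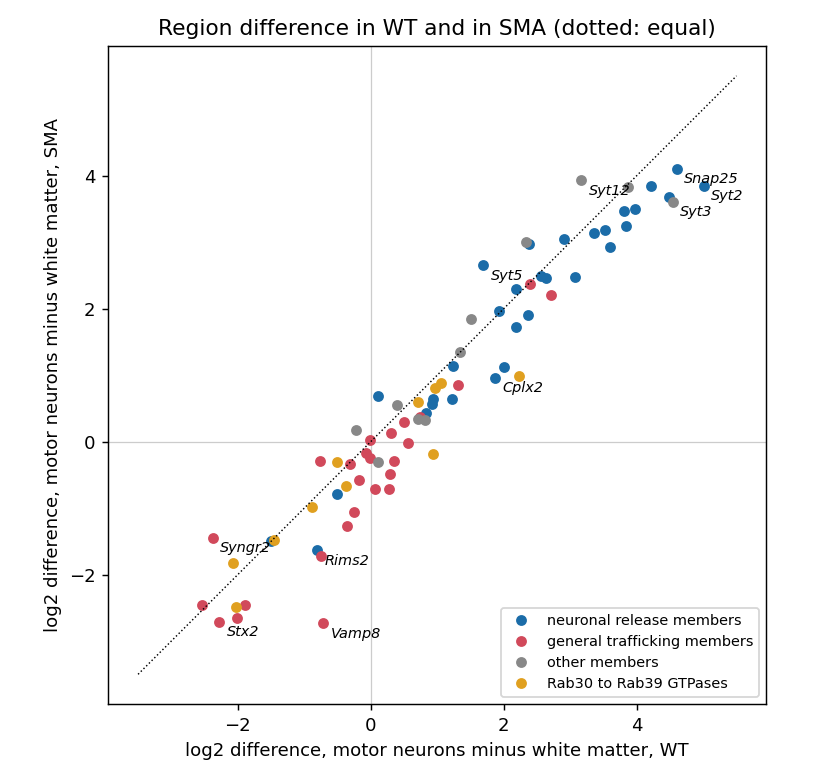
Log2 difference between motor neurons and white matter in WT (x axis) and in SMA (y axis) for the 79 tested members, coloured by role; the dotted line marks equal differences. Snap25 lies at 4.60 and 4.10, Syt2 at 5.01 and 3.85, and Vamp8 at -0.71 and -2.73. The 2 axes share no library.

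The series set motor neurons of SMA mice before symptoms against those of WT mice. For the release machinery no difference passed: 0 of 79 members were called (limma, smallest adjusted p = 0.755; 0 by voom on recovered reads), beside 0.0% of all tested genes. At an unadjusted p under 0.05 there were 2 members on the higher side, beside 2.01% of all tested genes, and 2 on the lower side, beside 2.36%. The median log2 change was -0.033 for the members and -0.050 for all tested genes. Over the neuronal release members it was -0.0020, with 15 positive and 16 negative. Both SMA values lay above both WT values in 5 members, beside 12.7% of all tested genes, and below them in 11, beside 15.5%.

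The levels of the main release genes were close in both genotypes. In motor neurons Snap25 averaged 689 ± 51.1 RPKM for WT and 718 ± 127 RPKM for SMA (SD, n = 2 in each group here and below), and the SMA values lay on either side of the WT ones. Vamp2 averaged 253 ± 34.5 and 283 ± 43.6 RPKM, Syp 221 ± 50.0 and 218 ± 7.25 RPKM, and Rab3a 378 ± 60.4 and 391 ± 45.8 RPKM. Syn1 averaged 111 ± 40.4 and 109 ± 33.6 RPKM and Cplx1 132 ± 23.1 and 145 ± 4.50 RPKM. None of these 6 genes passed (limma adjusted p = 1.0 for each), and the changes of the 19 members followed in every comparison lay between -0.54 for Syt2 and 0.25 for Unc13a on the log2 scale. A p that misses the threshold does not show that levels were equal: in simulated data with 200 changed genes among 13948, 9.55% of genes changed by a log2 of 1 and 78.5% of those changed by 2 were recovered in this comparison.

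Syngr2 had the smallest p among the members. It was at 2.47 and 1.28 RPKM in WT motor neurons (342 and 151 reads) and at 10.5 and 4.05 RPKM in SMA motor neurons (1305 and 509 reads), and the groups did not overlap. The log2 change was 1.44 ± 0.42 (limma unadjusted p = 0.00739, adjusted p = 0.755; adjusted p = 0.131 to 1.0 over 17 alternatives). In white matter, where Syngr2 was higher, it was at 15.4 and 11.9 RPKM in WT and at 21.7 and 17.9 RPKM in SMA. The summed level of 10 microglia markers, which were likewise lower in motor neurons than in white matter, was 30.5 and 34.0 RPKM in WT motor neurons and 94.2 and 82.3 RPKM in SMA motor neurons. The sum of the oligodendrocyte lineage markers was 145 and 111 RPKM in WT and 208 and 156 RPKM in SMA motor neurons, with 0 markers at 0 in both WT libraries and 1 at 0 in SMA replicate 1. Of the 10 microglia markers, 8 had a positive change, and P2ry12 and Itgam did not. C1qb and C1qc rose most in RPKM. C1qb was at 3.13 and 7.64 RPKM in WT and at 18.8 and 26.5 RPKM in SMA motor neurons. C1qc was at 8.16 and 10.3 RPKM in WT and at 32.4 and 23.2 RPKM in SMA motor neurons. The part of other cell types in the values of Syngr2 was not tested.

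Syt5, a synaptotagmin of dense-core and synaptic vesicles, was at 13.7 and 10.5 RPKM in WT and at 16.8 and 34.4 RPKM in SMA motor neurons (0.95 ± 0.41, limma unadjusted p = 0.0450, adjusted p = 1.0). Its groups did not overlap, and SMA replicate 2 was the higher one. Vamp8 was at 5.32 and 1.84 RPKM in WT and at 1.15 and 0.695 RPKM in SMA (-1.15 ± 0.45, limma unadjusted p = 0.0290, adjusted p = 1.0). Rab30, a GTPase of the Golgi, was at 24.2 and 26.4 RPKM in WT and at 20.5 and 5.13 RPKM in SMA motor neurons (-1.20 ± 0.50, limma unadjusted p = 0.0401, adjusted p = 1.0). The low value of Rab30 was that of SMA replicate 2 alone, and without SMA replicate 1 Rab30 passed (-2.10, limma adjusted p = 0.0277). Of the other members with the smallest p, Syt13, Rab3b and Unc13c lay on the higher side and Stxbp4, Stx4a and Rab39 on the lower side, with limma unadjusted p = 0.0838 to 0.298 and adjusted p = 1.0. Unc13c changed sign without SMA replicate 1.

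Syt2 was at 64.5 and 56.7 RPKM in WT and at 39.3 and 43.5 RPKM in SMA motor neurons, while Syt1 was at 27.7 and 29.4 RPKM and at 40.8 and 23.6 RPKM. The values of Syt2 did not overlap between the genotypes and those of Syt1 did. Syt2 was not called, and 15.5% of all tested genes had both SMA values below both WT values. The ratio of Syt2 to Syt1 was 2.33 and 1.93 in the WT libraries and 0.964 and 1.84 in the SMA libraries. The motor neuron markers summed to 1142 and 1077 RPKM in WT motor neurons and to 820 and 915 RPKM in SMA motor neurons, with 1 of 15 markers positive on the log2 scale. Whether the level of Syt2 moved with them was not tested.

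The 2 SMA motor neuron libraries lay on opposite sides of WT. Against the WT mean, the median member was 0.10 higher in SMA replicate 1 and 0.14 lower in SMA replicate 2 on the log2 scale, and the median of all tested genes 0.11 higher and 0.18 lower. In SMA replicate 2, 20 of 26 general trafficking members were below the WT mean, against 11 of 26 in replicate 1. Of all 13948 tested genes, 8800 were below the WT mean in replicate 2 and 5631 in replicate 1, and of the 31 neuronal release members 17 and 10. Snap23, for example, was at 2.24 and 0.688 RPKM in SMA replicates 1 and 2 (407 and 126 reads), and Vamp4, a SNARE of the trans-Golgi network, at 5.96 and 1.44 RPKM. The ribosomal RNA gene Rn45s held 22.4% and 33.4% of the RPKM sum in SMA replicates 1 and 2, and 26.2% and 29.5% in the WT motor neuron libraries. Recovered reads on genes were 63.7 of 81.7 M in SMA replicate 1 and 50.8 of 82.4 M in replicate 2. The part of this in the shift was not tested. In the list outside the symbol rule 0 of 57 genes were called. The first on the higher side was Slc32a1, the vesicle transporter of inhibitory neurons (11.0 and 3.63 RPKM in WT, 17.2 and 15.3 RPKM in SMA), and on the lower side Sh3gl2, a neuronal endophilin (45.5 and 43.9 RPKM in WT, 33.5 and 28.8 RPKM in SMA). Their limma unadjusted p was 0.0395 and 0.0612, with adjusted p = 1.0. Slc32a1 is also one of the 13 interneuron markers, which summed to 232 and 222 RPKM in WT and 266 and 388 RPKM in SMA motor neurons. The sums include Slc32a1 itself, and Sst alone was at 127 and 156 RPKM in WT and at 136 and 284 RPKM in SMA. All 11 tested interneuron markers had a positive change, and 0 were called. The part of interneurons in the values of Slc32a1 was not tested.

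In white matter, too, 0 of 79 members were called between SMA and WT (limma, smallest adjusted p = 0.727; 0 by voom), beside 0.0% of all tested genes. On the deposited scale 63 of the 79 had positive changes with a median of 0.25, and the median of all tested genes was 0.27. After median-of-ratios scaling the median was -0.018 for the members and 0.0015 for all genes, and 37 of 79 members were positive. At an unadjusted p under 0.05 there were 7 members on the higher side, beside 6.05% of all tested genes, and 1, Rims4, on the lower side, beside 0.258%. Both SMA values lay above both WT values in 23 members, beside 39.7% of all tested genes, and below them in 4, beside 4.17%.

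Among the members with the smallest p on the higher side of white matter were Cplx2, Rab3a, Syp and Syt3, each of them called higher in motor neurons in both genotypes. Cplx2 was at 5.03 and 6.19 RPKM in WT and at 15.7 and 11.1 RPKM in SMA white matter (1.11 ± 0.30, limma unadjusted p = 0.00464, adjusted p = 0.727). Rab3a was at 26.1 and 24.6 RPKM and at 45.5 and 36.1 RPKM, and Syp at 11.99 and 6.38 RPKM and at 14.8 and 17.5 RPKM (limma adjusted p = 0.727 and 0.741). The values of all 3 genes were higher in both SMA libraries than in both WT ones. The summed level of the neuronal release members was 273 and 225 RPKM in WT and 410 and 308 RPKM in SMA white matter, and that of the general trafficking members 278 and 294 RPKM and 366 and 340 RPKM. Motor neuron markers summed to 21.0 and 15.1 RPKM in WT and to 30.7 and 20.5 RPKM in SMA white matter, and interneuron markers to 27.4 and 13.4 RPKM and to 40.0 and 28.4 RPKM. Of the interneuron sums, Sst held 10.7 and 3.62 RPKM in WT and 18.9 and 10.3 RPKM in SMA white matter. Mean sums of non-neuronal markers were higher in SMA too. They went from 18.5 to 41.6 RPKM for endothelium and mural, 77.6 to 174 for meningeal fibroblast and 277 to 392 for microglia markers. Oligodendrocyte lineage markers went from 3251 to 4217 RPKM and astrocyte markers from 696 to 851 RPKM. After median-of-ratios scaling the median change of the neuronal release members was 0.036. The part of neuronal RNA in the levels of the members was not tested. Syt3 had a change of 0.76 ± 0.31. On the lower side Rims4 was at 1.31 and 1.62 RPKM in WT and at 0.547 and 0.0701 RPKM in SMA, and Syt12, Syt17, Stx1a and Rab37 followed with limma unadjusted p = 0.145 to 0.446. Stx1a changed sign without SMA replicate 2. In the list outside the symbol rule Sncg came first on the higher side (15.2 and 8.46 RPKM in WT, 33.3 and 30.8 RPKM in SMA, limma adjusted p = 0.634) and Napg, a SNARE recycling adaptor, on the lower side (5.18 and 5.49 RPKM, 4.09 and 4.03 RPKM, limma adjusted p = 0.825).

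**Figure D5:**
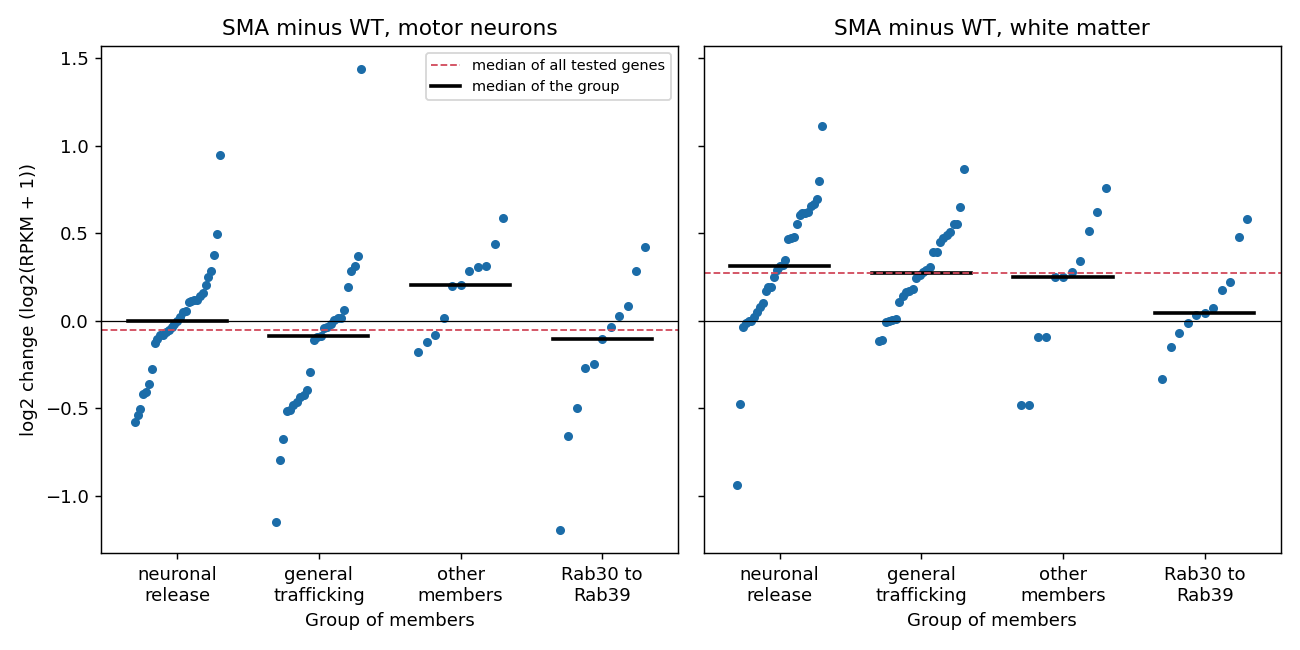
Log2 change of each tested member in SMA against WT (y axis, log2(RPKM + 1)) in motor neurons (left) and white matter (right), by role (x axis). Black bars are group medians and the dashed line is the median of all tested genes, -0.050 on the left and 0.27 on the right. No point passed limma; in white matter the neuronal release and general trafficking medians (0.31 and 0.27) lie near that of all genes.

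The 12 members that were not tested stayed under 1 RPKM in every library. Vamp7, a SNARE of lysosomes and endosomes, and Cplx4 were listed at 0 in all 8 libraries, and Cplx3 in 7 of them. The others, Rab38, Stx3, Stx11, Stx19, Syngr4, Syt8, Syt15, Unc13d and Vamp5, reached at most 0.129 to 0.985 RPKM. Vamp5, a VAMP of muscle and other non-neuronal cells, was listed at 0 in all 4 motor neuron libraries and reached 0.743 RPKM in SMA white matter replicate 2. Both Cplx3 and Cplx4 are complexins known from the retina.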

How the data were processed

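Gene levels were deposited by the authors as RPKM, in a separate file for each library. The submitters' processing notes list TopHat, bedtools and DESeq and the build mm9. The sources used here do not give versions, annotation, the counting rule, strand use or how reads matching several genes were handled, so genes that overlap others or share reads with relatives are uncertain. Sections were stained with hematoxylin before capture and cDNA was amplified, per the labels' protocols; how cells were picked is not given there.

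The 91 members, their roles and all lists were chosen with earlier results of these data known, and promoter motifs after the results were seen. Whole reads were worked out from the RPKM steps with small RNA genes of known length, for 99.98% of 17431 genes above 0 in at least 3 libraries within 0.02 reads. The test was limma 3.58.1 (R 4.3.3, eBayes with trend) on log2(RPKM + 1) for 13948 genes with at least 1 RPKM in at least 2 libraries. Group means of all 8 libraries were fitted without a block, with two-sided p-values and Benjamini-Hochberg adjustment over all genes (threshold 0.05). In simulated data 6.93 to 7.41% of calls were false. Named were 19 fixed members (Syp, Syn1, Syn2, Snap25, Vamp1, Vamp2, Stx1a, Syt1, Syt2, Syt11, Cplx1, Cplx2, Rab3a, Rims1, Unc13a, Snap23, Vamp3, Stx4a and Stx7), in part as a range, the 5 with the smallest p in each direction, up to 10 called lower in motor neurons, and from the list outside the symbol rule the first 3 (regions) or 1 (SMA) in each direction. Other members were named for a value singled out after it was seen. Alternatives were other pseudocounts, filters, scalings, a replicate block, voom on recovered reads, the compared libraries only and leaving out each library. Python 3.11.15, pandas 2.3.3 and matplotlib 3.10.9 were used for tables and figures. Promoters are RefSeq's on GRCm38.p6, a build other than mm9, and were joined by symbol only. Some members are counted but not reported here by name.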

Additional observations from a re-analysis of the deposited data

How the results depend on the processing

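Leaving out 1 library gave 27 to 39 members higher and 5 to 10 lower between the WT regions, 26 to 31 higher and 6 to 16 lower between the SMA regions, and 0 to 1 lower in SMA motor neurons, where the 1 was Rab30. A fit of the compared libraries only gave 8 lower members in SMA, against 13. The replicate block gave 34 higher and 9 lower members in WT, 29 and 13 in SMA and 0 for each SMA effect. Same-numbered libraries of the compared groups correlated by 0.012 to 0.074 in their deviations. WT motor neurons with SMA white matter gave 0.080, and SMA motor neurons with WT white matter -0.34. With 2 libraries a group, these values cannot show whether animals were shared. The labels name no animals, and the numbers were not taken as pairs. The log2 difference of Stx4a in WT became -0.093 after median-of-ratios scaling, -0.31 after quantile normalization and -0.17 to 0.30 without single libraries. That of Unc13c in SMA motor neurons ranged from -0.066 to 1.06 without single libraries and that of Stx1a in SMA white matter from -1.12 to 0.17. The difference of SMA effects of Slc32a1, a gene outside the symbol rule, became -0.25 by voom and ranged from -0.070 to 1.30 without single libraries. The causes were not tested. Median-of-ratios scaling moved the median of all genes by -0.13 between the WT regions, 0.16 between the SMA regions and -0.27 in SMA white matter. Of the 19 fixed members, 15 changed sign under at least 1 alternative in SMA motor neurons and 7 in white matter, with 0 calls.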
